A study of Mus musculus with 47 samples.

Results

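Rbp3, Sag, Tg, Gad1, Gad2, Mog, Mbp and Myh6 are 8 mouse genes whose proteins are known targets of organ-specific autoimmunity in the eye, thyroid, brain, pancreatic islet and heart. They were chosen for that role and found by Ensembl identifier in both count tables, 8 of 53402 genes listed for adults and 8 of 55471 listed for neonates. Their RNA was measured by bulk sequencing in medullary thymic epithelial cells (mTECs) sorted as CD45-EpCAM+Ly51- cells and split by MHC class II into mTEChi, with much of it, and mTEClo, with little. A filter on low counts was passed by 5 of the 8 in adults (Sag, Tg, Gad1, Mbp, Myh6) and by 6 in neonates (the same genes and Gad2). Rbp3 and Mog passed in neither table, and Rbp3 and Gad2 were therefore also read in a fit without the filter. Levels are given as CPM (counts scaled to a library size that is the same for all libraries) and compared between genes only per kilobase of exon.

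All mice were on the C57BL/6 background. The adult table holds 7 mTEChi WT and 8 mTEClo WT libraries from mice of 4 to 5 weeks, and 4 mTEChi AireKO and 4 mTEClo AireKO libraries from mice of 5 to 6 weeks. All adult AireKO libraries were male and the WT libraries were of both sexes. The neonatal table, from pups of 1 to 6 days, holds mTEChi from Ctrl (5 libraries), EEDcKO (3), AireKO (3) and AireEEDdKO (3) pups and mTEClo from Ctrl (3), EEDcKO (4) and AireEEDdKO (3) pups. Some neonatal libraries pooled both sexes. AireKO and AireEEDdKO pups were of 4 to 6 days, mTEClo Ctrl pups of 1 to 3 days, and the other neonatal groups spanned 1 to 6 days. The mTEChi AireKO and AireEEDdKO libraries were male or pooled, while mTEChi Ctrl and EEDcKO each held 1 female library. Age and sex were thus not balanced between the neonatal groups. AireKO mice lack Aire in the whole body. EEDcKO mice carry floxed EED deleted by Foxn1-Cre, which acts in thymic epithelium, and AireEEDdKO mice combine both losses. The labels give no further genotype for Ctrl.

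Medullary thymic epithelial cells transcribe genes of many peripheral organs and show the products to developing T cells, so that T cells against those organs can be removed or turned into regulatory cells. Aire, the autoimmune regulator, raises transcription of many such genes in mature mTECs, which are rich in MHC class II, while other organ genes are made there without it. EED belongs to the Polycomb complex PRC2, which places a repressive methyl mark on histones. Rbp3 encodes a retinoid carrier of the space around photoreceptors, and Sag encodes rod arrestin. Both are classical antigens of autoimmune uveitis. Gad1 and Gad2 encode the enzymes that make the transmitter GABA, and Gad2 is also an islet autoantigen in diabetes. Mog and Mbp encode myelin proteins, Tg encodes thyroglobulin, the precursor of thyroid hormone, and Myh6 encodes the heavy chain of cardiac alpha-myosin.

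The 250 bases before the start site are shown for 5 members, because these genes span the range from a loss of nearly all counts without Aire (Rbp3, Gad2, Myh6) to a partial change (Sag, Gad1). Sequences and starts are from RefSeq on GRCm38.p6, where 6 of the 8 members matched, and each runs 5′ to 3′ on the strand of the gene with CpG in capitals. Among 32851 promoters of this length the median was 6 CpG, with quartiles of 2 and 16. The windows are chr14:33953753-33954002 on the plus strand for Rbp3, chr1:87803430-87803679 on the plus strand for Sag, chr14:54966608-54966857 on the minus strand for Myh6, chr2:22622077-22622326 on the plus strand for Gad2 and chr2:70561879-70562128 on the plus strand for Gad1.
Rbp3: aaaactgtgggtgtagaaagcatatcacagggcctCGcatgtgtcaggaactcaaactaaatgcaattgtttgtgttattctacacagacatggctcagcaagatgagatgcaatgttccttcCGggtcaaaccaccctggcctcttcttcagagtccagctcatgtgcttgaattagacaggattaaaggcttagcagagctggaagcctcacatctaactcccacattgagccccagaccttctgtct
Sag: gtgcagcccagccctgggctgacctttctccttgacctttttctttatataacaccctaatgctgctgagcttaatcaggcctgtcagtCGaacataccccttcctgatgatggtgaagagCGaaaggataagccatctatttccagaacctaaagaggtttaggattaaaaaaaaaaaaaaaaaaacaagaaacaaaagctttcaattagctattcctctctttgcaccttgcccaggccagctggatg
Myh6: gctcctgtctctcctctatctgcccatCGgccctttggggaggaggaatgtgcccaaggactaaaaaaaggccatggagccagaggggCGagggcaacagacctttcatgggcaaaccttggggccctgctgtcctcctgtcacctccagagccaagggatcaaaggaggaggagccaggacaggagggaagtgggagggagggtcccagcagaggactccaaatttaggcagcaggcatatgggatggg
Gad2: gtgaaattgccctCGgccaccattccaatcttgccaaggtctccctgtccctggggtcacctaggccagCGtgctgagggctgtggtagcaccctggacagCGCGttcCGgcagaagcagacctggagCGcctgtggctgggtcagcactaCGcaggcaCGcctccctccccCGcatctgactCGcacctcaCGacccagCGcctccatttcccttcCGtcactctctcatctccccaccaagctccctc
Gad1: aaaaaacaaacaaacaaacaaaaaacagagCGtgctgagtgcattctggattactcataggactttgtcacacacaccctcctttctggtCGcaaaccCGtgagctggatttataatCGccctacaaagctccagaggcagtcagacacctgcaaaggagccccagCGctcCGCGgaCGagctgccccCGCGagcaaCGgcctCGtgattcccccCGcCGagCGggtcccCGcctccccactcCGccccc
The Rbp3, Sag and Myh6 windows held 2 CpG each, a number that 29.0% of promoters did not exceed, and so did that of Mog. Gad2 held 13 CpG, reached by 31.5% of promoters, and Gad1 held 17, reached by 23.5%. The letters TATAAA on either strand were found in Sag and Gad1 and in 12.4% of all promoters. Gad1 and Gad2 thus held more CpG than the median promoter, and the other 4 held fewer.

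The genes lie on GRCm38 as follows, from the GENCODE annotation. Rbp3 (ENSMUSG00000041534) spans chr14:33954003-33964216, Sag (ENSMUSG00000056055) chr1:87803680-87845158, Gad1 (ENSMUSG00000070880) chr2:70553072-70602014, Gad2 (ENSMUSG00000026787) chr2:22622205-22693874, Tg (ENSMUSG00000053469) chr15:66670753-66850721 and Mbp (ENSMUSG00000041607) chr18:82475146-82585637, all on the plus strand. Mog (ENSMUSG00000076439) spans chr17:37010743-37023398 and Myh6 (ENSMUSG00000040752) chr14:54941921-54966927, both on the minus strand. The Gad1 and Myh6 windows shown above lie inside these spans and that of Gad2 overlaps its span. For these genes the RefSeq start used thus differs from the outermost GENCODE start, and the CpG numbers hold for the RefSeq start. Counting ignored strand, and antisense genes share 1.26% of the exon bases of Tg and 1.70% of those of Myh6. Myh6 also has a near-identical paralog, Myh7, so reads that match both could be dropped or misplaced, and Myh6 values are uncertain to that extent.

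Libraries held 1602125 to 3938588 counts in adults and 1578579 to 4817418 in neonates. Aire averaged 818 ± 56.0 CPM (SD, n = 7) among adult WT mTEChi libraries and 29.3 CPM in AireKO, and Eed averaged 29.1 CPM in neonatal mTEChi Ctrl and 14.8 CPM in EEDcKO (edgeR log2 fold change -1.0, adjusted p = 0.0014), so both labels hold on average in these libraries. All 4 adult mTEChi AireKO and 2 of the 4 adult mTEClo AireKO libraries held no mitochondrial counts, while every other library did. In adult mTEChi this property and the genotype cannot be told apart, and the neonatal libraries give the Aire comparison without it. All 8 genes of an mTEC identity list (Epcam, keratins, Cd80, H2-Aa, Aire) were detected in every group, and between adult mTEChi WT and AireKO only Aire of them was called.

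Markers of other cell types were present in the sorted fractions. The summed level of 8 thymocyte markers, all detected in both groups, was 83.2 to 117 CPM in adult mTEChi WT and 43.8 to 58.1 CPM in AireKO, with 5 of 6 tested called lower. That of 4 myeloid markers was 82.2 to 116 and 27.2 to 38.7 CPM, with 3 of 4 lower. The 6 mesenchymal markers summed to 191 to 356 and 192 to 212 CPM, with 3 lower and 1 higher. The 4 endothelial markers summed to 40.8 to 69.4 and 44.2 to 67.1 CPM, and 4 markers of cortical thymic epithelium to 245 to 327 and 357 to 413 CPM, with 1 lower in each list. In neonatal mTEChi the thymocyte sum was 95.7 to 118 CPM in Ctrl and 55.5 to 88.8 CPM in AireKO, and the myeloid sum 83.3 to 120 and 13.1 to 25.3 CPM. Their part in the Aire results was not tested. In bulk samples fewer cells of a type and less RNA per cell cannot be told apart, and the labels do not say that replicates are separate animals. The study describes the points of a plot of mTEChi RNA-seq as individual mice, while some neonatal libraries are labelled as pools. Where libraries are not from separate animals, p-values measure only the spread between them.

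In adult mTEChi WT the 8 genes spanned a wide range per kilobase of exon. Mbp was highest at 22 ± 1.31 CPM per kb (SD, n = 7), above every library of the other genes. Gad1 at 10.4 ± 1.50 and Tg at 6.17 ± 1.48 CPM per kb followed, with overlapping libraries. Sag (1.17 ± 0.285) and Myh6 (0.933 ± 0.462) overlapped each other and lay below all Tg libraries. Gad2, Mog and Rbp3, at 0.348, 0.237 and 0.235 CPM per kb, could not be ordered among themselves. In neonatal mTEChi Ctrl the order of the first 3 was the same, Mbp 15.9 ± 1.14, Gad1 9.47 ± 1.07 and Tg 5.47 ± 0.961 CPM per kb (n = 5), with no overlap between neighbours. From Myh6 (1.23 ± 0.181) and Sag (0.788 ± 0.182) downward each gene overlapped the next. Adult and neonatal values were set side by side without a test, since the tables were made apart.

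**Figure D1:**
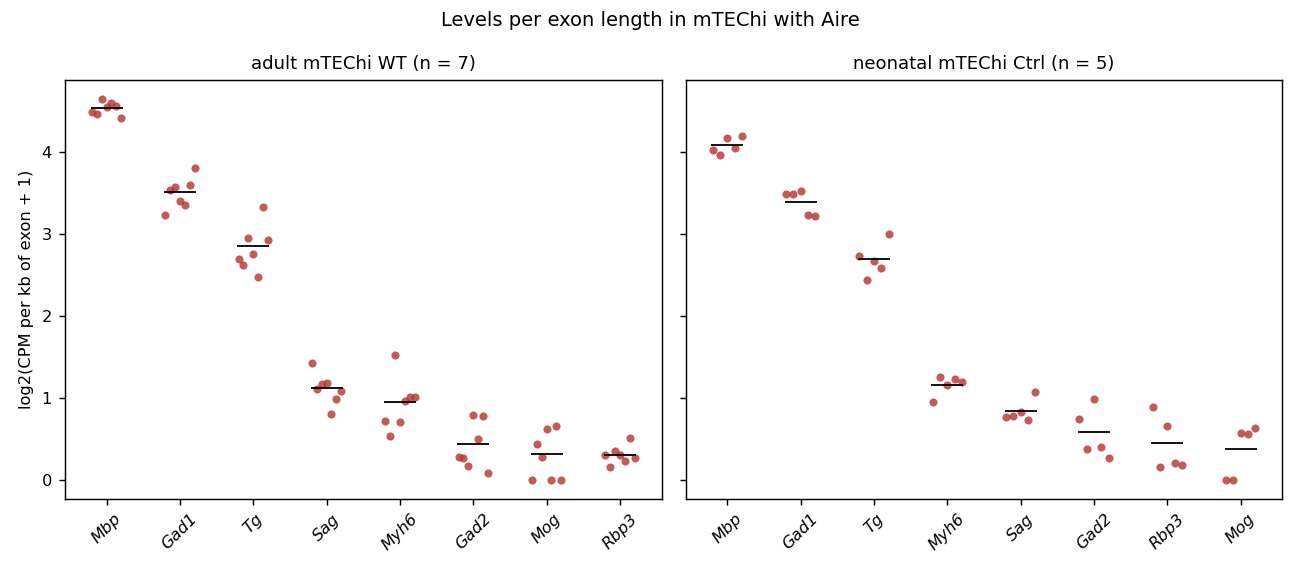
Level of each gene per kilobase of exon, as log2(CPM per kb + 1), in adult mTEChi WT (left, n = 7) and neonatal mTEChi Ctrl (right, n = 5), with 1 point per library and a line at the mean CPM per kb. Mbp, Gad1 and Tg stood above the other 5 genes at both ages, and Rbp3 and Mog were near 0.

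The retinal carrier gene Rbp3 was detected in all 7 adult mTEChi WT libraries and in no other adult library. Its lowest, median and highest WT levels were 0.600, 1.21 and 2.26 CPM, from 24 counts in all, and it had no count in any of the 4 mTEChi AireKO, 8 mTEClo WT or 4 mTEClo AireKO libraries. Taking 3 counts over the group as the floor of a group at 0, Rbp3 was at least 4.16-fold lower in mTEChi AireKO than in WT and at least 10.2-fold higher in mTEChi WT than in mTEClo WT. edgeR without the filter gave adjusted p = 0.00037 and 6.2e-07, in a fit that called 18.8% and 32.2% of genes in these comparisons. In neonatal mTEChi Ctrl the 5 libraries held 4.5, 0.578, 3.03, 0.792 and 0.703 CPM, from 26 counts. All 3 AireKO and all 3 AireEEDdKO mTEChi libraries held none, and the 3 EEDcKO libraries held 1 count each (0.619, 0.219 and 0.315 CPM). Neonatal AireKO was at least 4.13-fold below Ctrl (adjusted p = 0.0081 in the fit without the filter, where 8.97% of genes were called). That call was lost without AireKO replicate 3, at adjusted p = 0.088. Rbp3 was also present in neonatal mTEClo Ctrl, at 1.01, 0.351 and 0.563 CPM, and in 1 of 4 mTEClo EEDcKO libraries (0.426 CPM), and in none of the 3 mTEClo AireEEDdKO libraries.

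Sag, the rod arrestin gene, kept part of its level without Aire in mTEChi and behaved otherwise in mTEClo. Adult mTEChi WT ran from 6.60 through a median of 10.2 to 14.9 CPM, and the 4 AireKO libraries held 2.19, 4.91, 2.05 and 2.51 CPM. The groups did not overlap, and Sag fell by 1.80 on the log2 scale (SE 0.363, adjusted p = 0.00014). In mTEClo WT it ran from 4.2 through 7.78 to 17.2 CPM, against 17.9, 19.4, 13.1 and 12.9 CPM in mTEClo AireKO. The mTEClo AireKO mean was above the WT mean by 0.77 on the log2 scale (SE 0.265, adjusted p = 0.033), under 2-fold and with overlapping libraries. The AireKO libraries with mitochondrial counts held 17.9 and 19.4 CPM and those without 13.1 and 12.9 CPM. Leaving out any 1 of WT replicates 4 to 8 or AireKO replicate 1 or 2 ended the adjusted p below 0.05, with log2 values of 0.65 to 0.74. So did the replicate block (0.41, adjusted p = 0.19), sex as a term (0.11), male libraries only (0.059) and fitting only the groups compared (0.063). With age as a term the difference was 1.53 (adjusted p = 0.0011), and with only the AireKO libraries that hold mitochondrial counts it was 1.07 (adjusted p = 0.027), both past 2-fold. The difference of the Aire effect between the fractions was itself tested and was -2.57 on the log2 scale (SE 0.45, adjusted p = 1e-04). Between the fractions the log2 difference of mTEChi over mTEClo was 0.17 in WT (SE 0.238, adjusted p = 0.52), and mTEChi was lower than mTEClo in AireKO (-2.39, SE 0.378, adjusted p = 3.5e-06).

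In neonatal mTEChi Ctrl, Sag held 6.19, 6.35, 6.88, 5.81 and 9.84 CPM, and AireKO held 2.74, 4.82 and 2.83 CPM. These groups did not overlap either, with a log2 fold change of -1.082 (SE 0.399, adjusted p = 0.044). The call did not last when Ctrl replicate 1, 3 or 5 or AireKO replicate 1 or 3 was left out, with adjusted p = 0.050, 0.052, 0.11, 0.13 and 0.20, or with the replicate number as a block (-0.91, adjusted p = 0.14). It was also lost by DESeq2 (adjusted p = 0.065), with sex (0.064) or age (0.070) as a term and with no filter (0.074). EEDcKO held 6.19, 5.47 and 3.46 CPM and AireEEDdKO 2.94, 1.73 and 4.17 CPM, groups that overlapped. In mTEClo, Ctrl held 3.72, 4.21 and 6.19 CPM, EEDcKO 8.75, 5.39, 7.25 and 7.32 CPM, and AireEEDdKO 12.6, 3.9 and 6.48 CPM. AireEEDdKO mTEChi lay below AireEEDdKO mTEClo in mean (-1.26, SE 0.418, adjusted p = 0.020), the direction seen in adult AireKO, with overlapping libraries. That call was lost without mTEChi replicate 1 or 2 (adjusted p = 0.055, 0.095), without mTEClo replicate 1 (0.16) and with only the groups compared (0.11).

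Gad1, which encodes the main GABA-making enzyme of most GABA neurons, was abundant in mTEChi and changed with Aire in part. Adult mTEChi WT held 63.8, 81.0 and 98.9 CPM (lowest, median, highest) and AireKO 54.0, 50.3, 55.8 and 56.0 CPM. Every AireKO library lay below every WT library, and the log2 difference of -0.55 (SE 0.139, adjusted p = 0.0014) was under 2-fold. In neonatal mTEChi the 5 Ctrl libraries held 77.6, 77.4, 79.8, 63.6 and 63.2 CPM and the 3 AireKO libraries 28.1, 28.2 and 15.0 CPM. Gad1 there fell by 1.66 on the log2 scale (SE 0.269, adjusted p = 0.00012) and stayed called without any 1 library. Neonatal EEDcKO mTEChi held 67.5, 65.0 and 59.8 CPM, within or near the Ctrl range, and AireEEDdKO held 47.1, 43.3 and 22.5 CPM, between EEDcKO and AireKO in mean. AireEEDdKO against EEDcKO gave -0.80 (SE 0.274, adjusted p = 0.039), under 2-fold, and the adjusted p passed 0.05 without EEDcKO replicate 1, 2 or 3 (0.070, 0.071, 0.066) or AireEEDdKO replicate 2 or 3 (0.056, 0.20). The difference between the Aire effects with and without EED was 0.86 (SE 0.381, unadjusted p = 0.033, adjusted p = 0.26) and was not called.

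In mTEClo, adult WT held 5.04, 7.62 and 11.7 CPM of Gad1 (lowest, median, highest) and AireKO 5.95, 5.01, 5.66 and 6.56 CPM. Neonatal mTEClo Ctrl held 17.2, 19.99 and 13.5 CPM, EEDcKO 4.38, 8.98, 13.0 and 7.82 CPM, and AireEEDdKO 14.2, 22 and 17.4 CPM. EEDcKO thus lay below both other groups in every library. Against Ctrl the log2 difference was -0.96 (SE 0.298, adjusted p = 0.017), just under 2-fold, and its adjusted p rose to 0.071 without Ctrl replicate 2. AireEEDdKO exceeded EEDcKO by 1.04 on the log2 scale (SE 0.283, adjusted p = 0.025). That call was lost with the replicate block (0.94, adjusted p = 0.070), and without EEDcKO replicate 1, 2 or 4 (adjusted p = 0.087, 0.052, 0.055) or AireEEDdKO replicate 2 (0.16). Summed markers of cortical thymic epithelium (4 genes) were 1220 to 1950 CPM in Ctrl, 197 to 656 CPM in EEDcKO and 195 to 252 CPM in AireEEDdKO. They were lower in EEDcKO than in Ctrl, as Gad1 was, and did not rise in AireEEDdKO as Gad1 did. Their part in the result was not tested.

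Gad2, the second GABA-making enzyme and the islet autoantigen, was far lower and was counted mostly in mTEChi with Aire. In adult mTEChi WT the lowest, median and highest levels were 0.357, 1.24 and 4.23 CPM, 42 counts in all. The AireKO libraries held 0, 0.409, 0.342 and 0 CPM, 2 counts in all. The ratio of WT to AireKO was 11.3, with an exact 95% counting interval of 2.94 to 96.5, and the fit without the filter gave adjusted p = 0.00083. The 8 mTEClo WT libraries held 0 to 0.636 CPM with a median of 0, and 1 of 4 mTEClo AireKO libraries held any (0.541 CPM). In neonatal mTEChi Ctrl Gad2 held 3.94, 1.73, 5.78, 1.85 and 1.17 CPM, 43 counts in all, and no count in any AireKO library, at least 6.22-fold lower (edgeR adjusted p = 0.021). Leaving out AireKO replicate 1, 2 or 3 moved the adjusted p to 0.0497, 0.054 and 0.099, so that the call was lost in the last 2 and held narrowly in the first, and without Ctrl replicate 1 or 3 the gene no longer passed the filter. EEDcKO libraries ranged widely, at 0.619, 4.81 and 0 CPM, and AireEEDdKO held 0, 1.16 and 0 CPM. Neonatal mTEClo held 0, 0.351 and 0 CPM in Ctrl, 0, 0.719, 0.426 and 0.252 CPM in EEDcKO, and 0, 0 and 0.926 CPM in AireEEDdKO.

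Of the myelin genes, Mog was too rare to compare. It had 0 to 4 counts in any library, 8 counts over 7 adult mTEChi WT libraries and 2 in each other adult group, and 10 over 5 neonatal mTEChi Ctrl libraries. None was counted in the 3 neonatal mTEChi AireKO libraries, 2 in EEDcKO and 1 in AireEEDdKO, while neonatal mTEClo held 2 in Ctrl, 7 in EEDcKO and 2 in AireEEDdKO. The adult mTEChi ratio of WT to AireKO was 2.16, with a counting interval of 0.43 to 20.8 that includes no difference.

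Mbp, which encodes a major protein of compact myelin and, from the same locus, golli transcripts known outside myelin, went the other way. Adult mTEChi WT ran from 171 through 189 to 203 CPM and AireKO held 267, 262, 278 and 265 CPM, all above WT. The log2 difference was 0.52 (SE 0.071, adjusted p = 6e-07), under 2-fold, and 0.36 to 0.52 in the alternative fits. The summed thymocyte markers were lower in the same AireKO libraries, as given above, and their part in the Mbp result was not tested. In mTEClo no such shift was seen, with 78.2, 87.7 and 93.1 CPM in WT (lowest, median, highest) and 91.5, 77.6, 89.6 and 77.7 CPM in AireKO, and the Aire effect differed between the fractions by 0.55 (SE 0.104, adjusted p = 0.00022). In neonatal mTEChi, Ctrl held 129, 123, 143, 131 and 145 CPM and AireKO 169, 157 and 175 CPM. These did not overlap, at adjusted p = 0.10. EEDcKO held 135, 119 and 135 CPM and AireEEDdKO 139, 137 and 120 CPM, within or near the Ctrl range. Neonatal mTEClo held 86.1, 80.0 and 48.9 CPM in Ctrl, 75.4, 76.5, 114 and 91.4 CPM in EEDcKO, and 115, 109 and 103 CPM in AireEEDdKO.

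Tg, the thyroid hormone precursor gene, differed between the fractions and was called with loss of Aire at neither age. Adult mTEChi WT ran from 40.5 through 51.0 to 80.4 CPM and AireKO held 45.2, 60.1, 32.5 and 36.3 CPM. The libraries overlapped, and the log2 difference of -0.34 (SE 0.203) had an adjusted p of 0.15. Leaving out AireKO replicate 2 or scaling by library size alone took it past the test, at -0.54 (adjusted p = 0.045) and -0.51 (adjusted p = 0.037), still under 2-fold. Adult mTEClo held 0 to 2.04 CPM in WT, with a median of 1.62, and 4.33, 0, 1.49 and 1.70 CPM in AireKO. In neonatal mTEChi, Ctrl held 50.1, 39.3, 47.6, 44.1 and 62.1 CPM, AireKO 50.7, 78.5 and 45.8 CPM, EEDcKO 20.4, 20.1 and 19.5 CPM and AireEEDdKO 30.0, 39.9 and 13.5 CPM.

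All 3 EEDcKO libraries thus held less Tg than any Ctrl library, a fall of 1.29 on the log2 scale (SE 0.464, adjusted p = 0.037). The call was lost without Ctrl replicate 1 or 5 (adjusted p = 0.056, 0.071) or EEDcKO replicate 1, 2 or 3 (0.070, 0.11, 0.10), stood at 0.0497 without Ctrl replicate 3, and was lost with sex as a term (0.058). AireEEDdKO also lay below AireKO in every library, at -1.10 (SE 0.511, adjusted p = 0.15). In neonatal mTEClo, Tg held 17.6, 16.1 and 14.1 CPM in Ctrl, 5.39, 6.83, 18.6 and 1.26 CPM in EEDcKO and 8.83, 15.0 and 2.08 CPM in AireEEDdKO. The Ctrl mTEClo level was well above the adult mTEClo WT level, side by side and with no test.

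Myh6, the cardiac alpha-myosin gene, had the steepest loss in adults among the members that passed the filter. Adult mTEChi WT held 3.00, 6.30 and 12.5 CPM (lowest, median, highest), from 122 counts. A single count was left in the 4 AireKO libraries, in replicate 3 (0.342 CPM). The ratio of WT to AireKO was 65.8, with an exact 95% counting interval of 11.6 to 2620, and edgeR gave adjusted p = 1.5e-07. Neonatal mTEChi Ctrl held 6.19, 9.24, 8.25, 8.98 and 8.66 CPM, from 128 counts, and AireKO 0, 0 and 0.848 CPM, from 3. The ratio was 18.1 (counting interval 6.06 to 89.0, edgeR adjusted p = 2.1e-05). With EED lost, 3.10, 7.0 and 6.60 CPM remained, and with Aire lost as well 0.589, 1.73 and 0.321 CPM, a fall of 2.83 on the log2 scale (SE 0.545, adjusted p = 0.00085). Its paralog Myh7 averaged 17.0 CPM in adult mTEChi WT and 10.2 CPM in AireKO, at -0.74 on the log2 scale (adjusted p = 0.016), and was not called.

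A low Myh6 level in mTEClo did not fall with Aire. Adult mTEClo WT held 0.524, 0.907 and 1.27 CPM (lowest, median, highest) and AireKO 1.083, 3.76, 2.98 and 0.728 CPM, with a log2 difference of 1.11 (SE 0.495) at adjusted p = 0.10. Without AireKO replicate 4 it was 1.50 (adjusted p = 0.031). The Aire effect differed between the fractions (-6.60, SE 0.919, adjusted p = 5e-06), and in AireKO mTEChi lay below mTEClo (-3.81, SE 0.907, adjusted p = 0.00068). Neonatal mTEClo held 1.35, 1.40 and 2.25 CPM in Ctrl, 1.68, 2.51, 1.07 and 1.51 CPM in EEDcKO, and 1.26, 1.44 and 1.16 CPM in AireEEDdKO.

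**Figure D2:**
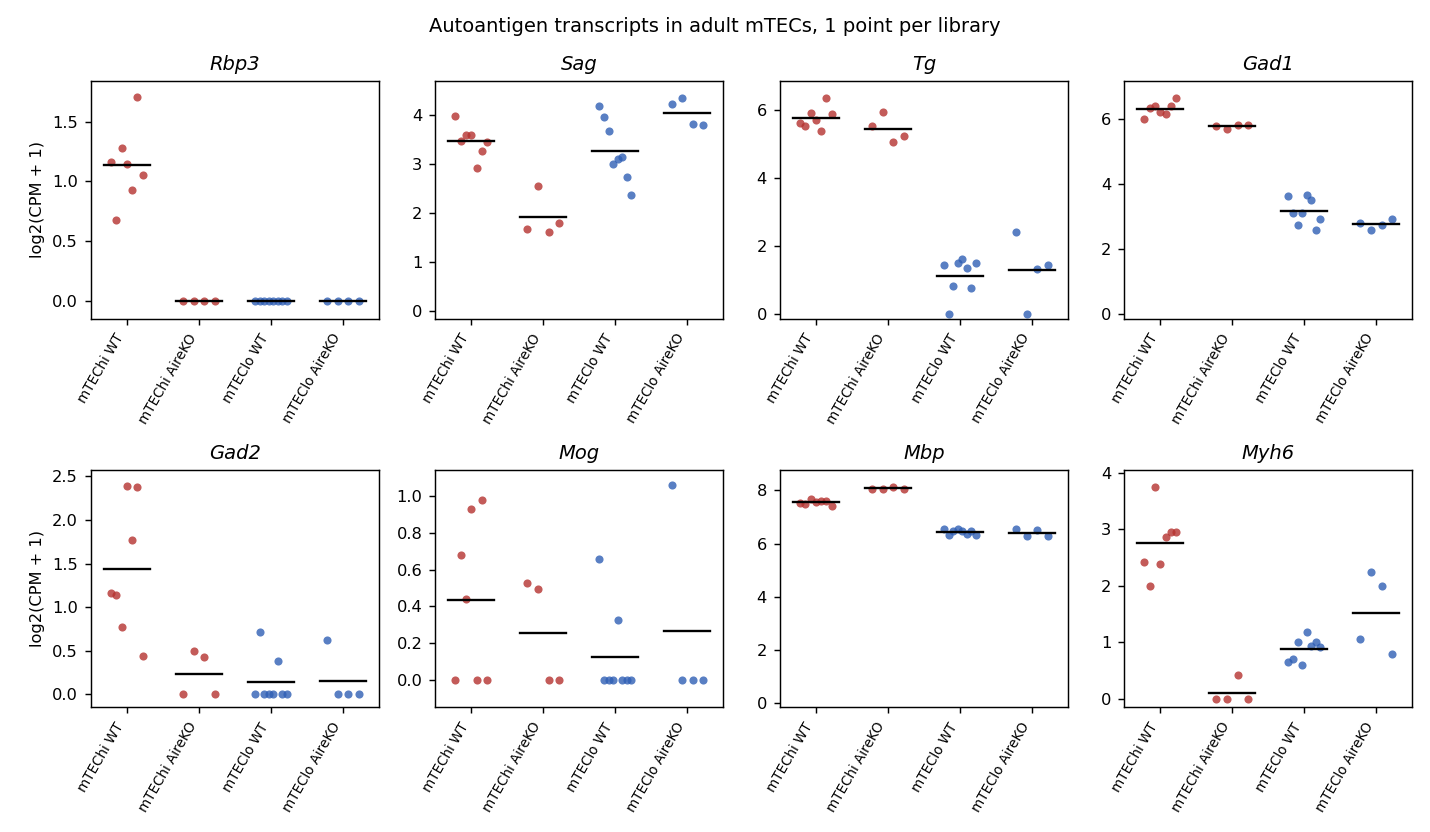
Level of each gene in adult libraries as log2(CPM + 1), with 1 point per library, mTEChi in red, mTEClo in blue and a bar at the group mean of the log2 values. Rbp3, Gad2 and Myh6 were near 0 in the 4 mTEChi AireKO libraries, Sag was reduced and Mbp was raised there.

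**Figure D3:**
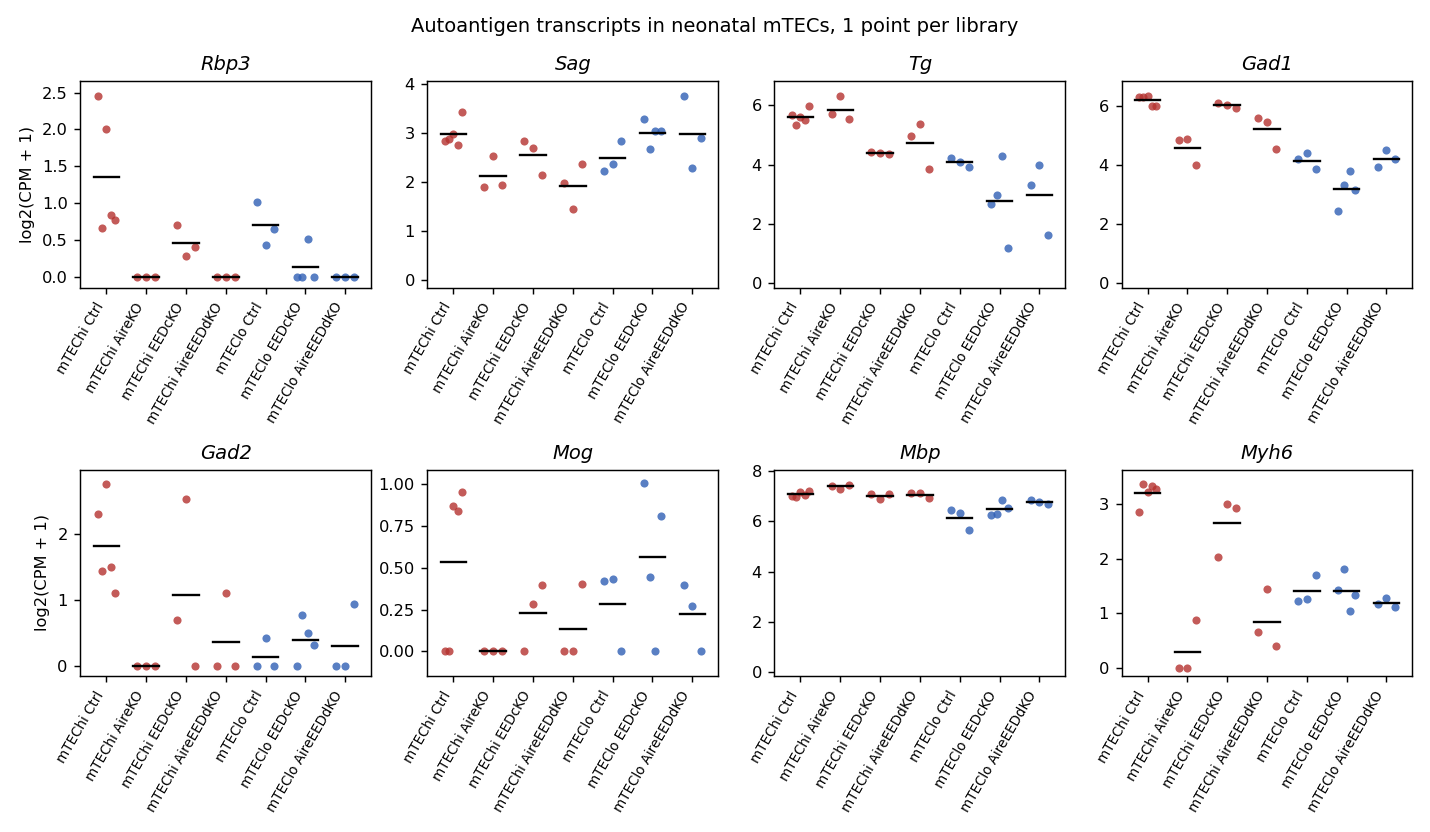
Level of each gene in neonatal libraries as log2(CPM + 1), with 1 point per library, mTEChi in red, mTEClo in blue and a bar at the group mean of the log2 values. Gad1 was lower in mTEChi AireKO than in Ctrl, Tg was lower in mTEChi EEDcKO, and Rbp3 and Gad2 had no count in mTEChi AireKO.

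Counted over the members, loss of Aire in adult mTEChi changed 2 of the 5 tested by at least 2-fold at an adjusted p below 0.05, Myh6 and Sag, both lower, where 23.4% of all tested genes were called. Without the filter 4 of 8 were called, the same pair and Rbp3 and Gad2, where 18.8% of all genes in that fit were called. In adult mTEClo none of the 5 was called by edgeR or by DESeq2, against 8.3% of all genes called by edgeR. An unadjusted p below 0.05 was reached by 3 of the 5, and the share of all genes at that threshold is not given here. In neonatal mTEChi loss of Aire lowered 4 of the 6 tested (Gad2, Myh6, Gad1, Sag), against 16.4% called in either direction and 12.8% called lower. The shares in adults (2 of 5) and neonates (4 of 6) rest on few genes, and no test of the list was made. Myh6 in both tables and Gad2 in neonates passed the filter through their levels in mTEChi with Aire. Their falls are thus not independent of their place among the tested genes. Loss of Aire on top of EED in neonatal mTEChi lowered 1 of 6 (Myh6), against 13.3%, and in mTEClo raised 1 of 6 (Gad1), against 5.3%. The Aire effect differed between adult fractions by at least 2-fold for 2 of 5 (Myh6, Sag), against 13.7%, and for Mbp it differed by less.

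**Figure D4:**
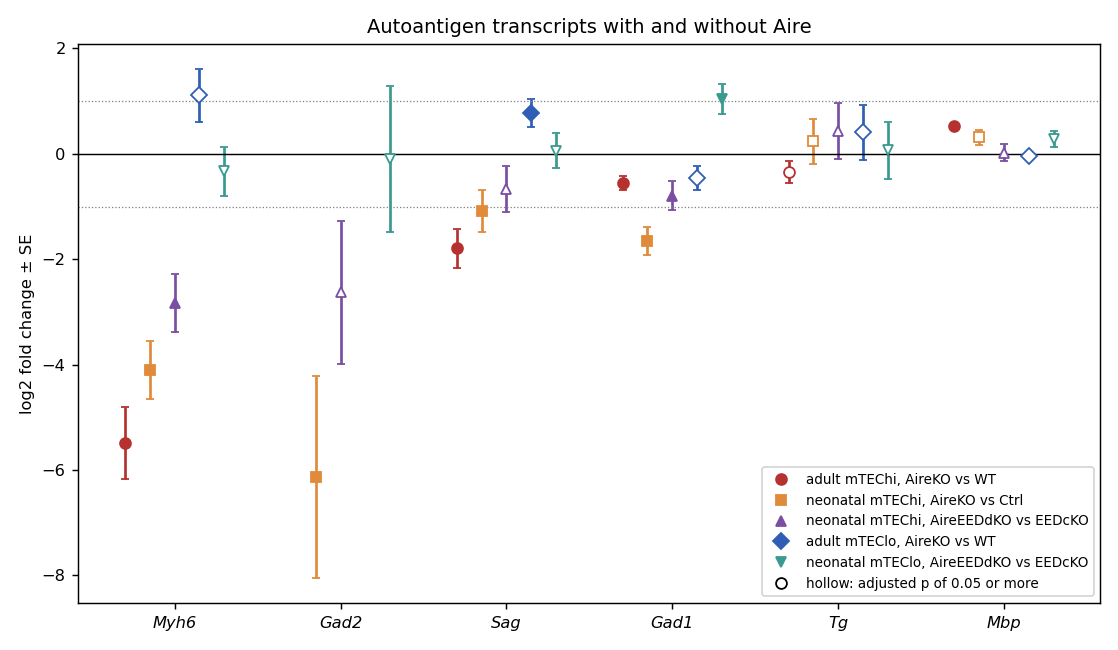
Log2 fold change with SE after loss of Aire for the 6 members tested in at least 1 table, in 5 comparisons told apart by colour and marker, with dotted lines at 2-fold and hollow markers for an adjusted p of 0.05 or more. Myh6, Gad2, Sag and Gad1 lay below 0 in every mTEChi comparison in which they were tested, Tg lay near 0, and Mbp lay above 0 in adult mTEChi. For AireEEDdKO against EEDcKO in mTEChi, the Gad2 value of -2.625 (hollow) turned to 0.423 without EEDcKO replicate 2.

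Loss of EED in neonatal mTEChi lowered 1 of the 6 tested members (Tg), where 13.9% of all genes were called. In mTEClo none of the 6 was called by edgeR, against 15.7%, while 1 was called by DESeq2 and 1 had an unadjusted p below 0.05. Between AireEEDdKO and AireKO mTEChi none was called by either tool, against 9.47% by edgeR, and 3 had an unadjusted p below 0.05. The test of whether the Aire effect differed with EED called none by either tool, against 1.25% by edgeR. There 1 member (Gad1) had an unadjusted p below 0.05. The percentages are of called genes and give no background for counts at an unadjusted p. The 6 mesenchymal markers moved with EED, summing to 242 to 317 CPM in mTEChi Ctrl and 492 to 778 CPM in EEDcKO, and to 121 to 129 and 496 to 683 CPM in mTEClo, and their part in these results was not tested.

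Most members differed between the fractions. In adult WT, 4 of the 5 tested were higher in mTEChi than in mTEClo, against 36.1% of genes called in either direction and 23.7% called higher. The log2 differences were 5.28 for Tg (SE 0.257, adjusted p = 1.2e-16), 3.27 for Gad1 (SE 0.136, adjusted p = 4e-18), 2.80 for Myh6 (SE 0.345, adjusted p = 3.3e-08) and 1.12 for Mbp (SE 0.061, adjusted p = 1.5e-15). The ratio of Gad2 was 27.7 (counting interval 7.21 to 236). In adult AireKO all 5 tested members were called, against 35.2% of genes, with Tg (4.53), Gad1 (3.18) and Mbp (1.67) higher in mTEChi and Myh6 (-3.81) and Sag (-2.39) lower. In neonatal Ctrl 4 of 6 were higher in mTEChi, against 20.7% called in either direction and 13.8% called higher. They were Gad2 (ratio 21.5, counting interval 3.65 to 867), Myh6 (2.34 on the log2 scale), Gad1 (2.07) and Tg (1.604). Gad2 and Myh6 passed the filter through mTEChi libraries, so their place among the tested genes depended on the higher group. Gad2 was lost without mTEClo Ctrl replicate 1 or 3 (adjusted p = 0.0955 and 0.073) and stood at 0.0498 without replicate 2, and Tg stood at 0.0498 without mTEClo Ctrl replicate 3. In EEDcKO 2 of 6 were higher in mTEChi (Gad1 2.86, Myh6 1.81), against 21.8%. In AireEEDdKO 3 of 6 were called, Tg (1.62) and Gad1 (1.03) higher and Sag lower, against 21.0%, and none was called without mTEChi replicate 1 or 2 and 1 without mTEClo replicate 1 or 3.

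Other genes of the same organs gave a wider view of the Aire comparison. These lists exclude the members and were read by their counts, beside the 17.8% of tested genes that were called lower with Aire lost in adult mTEChi and the 12.8% in neonatal mTEChi. Among the cardiac genes, 9 of 14 tested fell in adults, with a median log2 change of -1.52 against a median of -0.015 over all genes, and 9 of 16 fell and 1 rose in neonates, with a median of -1.43 against 0.035. Medians here were the same with genes at 0 in a whole group set to their bound. Actc1, the cardiac actin, went from 21.1 to 0.649 CPM in adults, and Myl3, a ventricular myosin light chain, from 9.25 to 0.597 CPM in adults and from 9.5 to 0.916 CPM in neonates. The myelin list had 9 of 15 lower and 2 higher in adults (median -2.10) and 8 of 15 lower in neonates (median -1.68). Its summed level averaged 375 CPM in adult mTEChi WT and 404 CPM in AireKO. In neonatal mTEChi it averaged 343 CPM in Ctrl and 329 CPM in AireKO, and libraries overlapped at both ages. The cardiac sum averaged 516 and 365 CPM in the same adult groups and 487 and 303 CPM in the neonatal ones. Ugt8a, which makes the galactolipids of myelin, had 11.7 CPM in adult WT and no count in AireKO, and Pmp22 of peripheral myelin fell by 3.45 on the log2 scale in neonates. Mbp was thus higher in adult AireKO, while 9 of the 15 others tested fell.

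The GABA list had 3 of 5 lower in adults (median log2 change -3.71) and 5 of 6 in neonates (-3.64). The GABA transporter Slc6a11 had 18.3 CPM in adult WT and no count in AireKO, a loss like that of Gad2 and unlike that of Gad1. In the thyroid list 4 of 9 fell and 1 rose in adults (median -1.105), and 5 of 11 fell in neonates (-1.53). Its summed level averaged 254 CPM in adult mTEChi WT and 277 CPM in AireKO, and 227 and 234 CPM in neonatal Ctrl and AireKO. The GABA sum averaged 82.3 and 20 CPM in the same adult groups and 74.1 and 27 CPM in the neonatal ones. Pax8, a thyroid transcription factor, went from 12.4 to 0.404 CPM in adults, whereas Tg was not called at either age. The islet list had 2 of 7 lower in adults, Ins2 from 10.6 CPM to no count and Iapp from 47.6 to 10.5 CPM, and 1 of 8 (Ins2) in neonates, with medians of -0.42 and -0.52.

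The eye list had 5 of 14 lower in adults (median log2 change -0.36) and 3 of 16 in neonates (-0.56). Rlbp1, a retinoid carrier of the retinal pigment epithelium, went from 10.9 to 2.25 CPM in adults, and Gnat1, the rod transducin subunit, from 6.54 to 2.73 CPM. Gnat1 also resembled Sag in its direction in mTEClo, where it rose from 1.50 CPM in WT to 7.01 CPM in AireKO, and its Aire effect differed between the fractions by -3.52 on the log2 scale (adjusted p = 4.2e-07). In adult mTEClo AireKO 3 of 14 eye genes rose and none fell, where 4.42% of all genes were called higher and 3.88% lower, with Grk1, rhodopsin kinase, going from 0.113 to 2.80 CPM. The skeletal muscle list, kept beside the cardiac one, had 3 of 9 lower and 1 higher in adults and 1 of 10 lower in neonates (medians -0.81 and -0.002), with embryonic myosin Myh3 going from 100.3 to 0.962 CPM in adults.

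With EED lost in neonatal mTEChi the organ lists differed in how many genes were called, where 5.4% of all genes were called lower and 8.48% higher. The cardiac list had 0 of 16 called by edgeR, and 1 was lower of 16 in the eye list (Grk1) and of 6 in the GABA list (Slc32a1). The thyroid list had 1 of 11 lower, Tshr, the receptor for thyrotropin, from 15.3 to 7.23 CPM, and 1 higher (Foxe1). The islet list had 1 lower and 2 higher of 8, the myelin list 2 lower and 2 higher of 15, and the skeletal muscle list 1 lower and 3 higher of 10. These counts rest on few genes per list, and no list was tested against the shares over all genes.

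**Figure D5:**
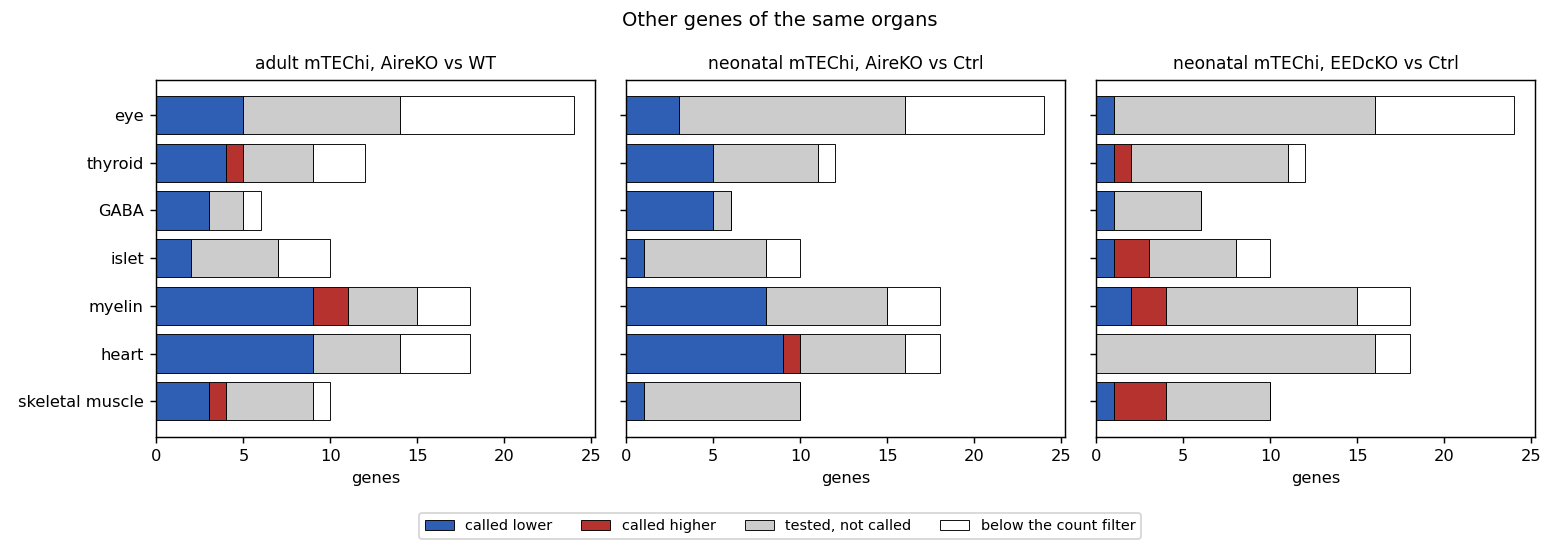
Number of genes of 7 organ lists called lower (blue), called higher (red), tested and not called (grey) or below the count filter (white) in 3 comparisons of mTEChi. The cardiac and myelin lists had 9 genes each called lower in adult AireKO, and the cardiac list had none called in EEDcKO.

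The genes whose log2(CPM + 1) followed each member most closely over the 23 adult libraries are given as a description, with the correlation over the 24 neonatal libraries beside it. They were Slc18a1 for Gad1 (r = 0.99 in adults, 0.821 in neonates), Atp2b2 (0.984, 0.641) and Wscd2 (0.983, 0.855) for Tg, and Fermt1 (0.985, 0.715) and Aoc1 (0.985, 0.828) for Mbp. For Gad1 the next was Slc6a20a (0.987, 0.761). Col1a1 (0.903, 0.656) and Khdc3 (0.899, 0.843) came nearest to Myh6, and Col1a1 itself fell from 116 to 0.912 CPM in adult mTEChi AireKO. Bpifa1 (0.844, 0.404) and Cpox (0.836, 0.391) came nearest to Sag. These libraries share groups, so a correlation over them mostly carries group differences.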

How the data were processed

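RNA-seq was read in 47 libraries of sorted mouse mTECs. The values are raw read counts per Ensembl gene, as the authors deposited them. Per the labels and the study's methods, the authors made full-length total RNA libraries of the RamDA-seq kind, cut reads to 50 bases with fastx_trimmer where needed, trimmed adapters and low-quality parts with fastp 0.20.0, mapped them to mm10 (GRCm38) with STAR 2.7.3a, dropped mapping qualities under 5 with SAMtools 1.9, removed duplicates with Picard 2.21.1 and counted with HTSeq 0.11.2 regardless of strand. Duplicate removal without molecular identifiers can flatten abundant genes. The annotation release is not given in the sources used here, and the authors' normalized tables were not used.

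Counts were fitted per table with all groups in edgeR 4.0.16 (R 4.3.3): filterByExpr by group, TMM scaling, a quasi-likelihood F-test and Benjamini-Hochberg adjustment over all tested genes (19310 in adults, 20196 in neonates). Calls required a change of 2-fold or more together with an adjusted p below 0.05. The SE is the log2 fold change over the root of F, CPM uses the TMM-scaled library size, and the prior count was 0.125. Members below the filter were read in a fit of all genes with a count (42889 and 44971), and their intervals and floors cover counting error only. Alternatives were other scalings, prior counts and filters, DESeq2 1.42.0, the replicate block, sex or age terms, male adult libraries, AireKO libraries with mitochondrial counts, the compared groups alone and leaving out each library.

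In simulated counts with the adult mTEChi Aire design, over 18134 genes, 90% of genes changed by 2-fold and 62% of those changed by 1.5-fold passed the adjusted p. With the neonatal design, over 19265 genes, 56% and 34% did. The changed genes were drawn only from well-counted genes, so these shares do not apply to members with few counts per library, such as Gad2 and adult Myh6. No pair of replicates agreed within sampling noise (chi-square per gene 1.23 to 14.0), but some were much closer than others of their group. In adult mTEChi AireKO, replicates 1 and 2 (1.343) and 3 and 4 (1.282) compared with 3.997 to 6.387 for the other pairs. Replicates 1 and 2 were also close in adult mTEChi WT (1.233) and neonatal mTEChi Ctrl (1.243). The p-values treat all libraries as independent, and leaving out 1 library of such a pair keeps its close partner. Replicate numbers deviated together, with every correlation above 0.1, in adult AireKO mTEChi against mTEClo (0.145 to 0.238, 4 pairs), AireEEDdKO against AireKO (0.122 to 0.226, 3 pairs) and AireEEDdKO mTEChi against mTEClo (0.304 to 0.432, 3 pairs). There the pairing comes from the data alone.

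The members and lists were chosen with earlier results of these data known. Named genes are the members, Aire and Eed, up to 3 genes per list with the largest change among called genes whose groups did not overlap and whose higher group reached 1 CPM, and the 2 protein-coding genes nearest to each tested member. Some genes that this rule names are not reported here. The lists are 7 of organs (eye, thyroid, GABA, islet, myelin, heart, skeletal muscle) and 6 of cells (mTEC identity, thymocyte, mesenchyme, endothelium, myeloid, cortical epithelium). Gnat1 and Myh7 in other comparisons were chosen after their values were seen.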

Additional observations from a re-analysis of the deposited data

Results flagged for a closer look

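In 8 of 45 groups of member values 1 library stood apart from the rest by Dixon's 95% criterion, where chance alone gives about 5% of groups. In groups at or near 0 a count of 1 or 2 is enough: Gad2 in adult mTEClo AireKO replicate 1 (0.541 CPM), Mog in the same library (1.083 CPM), Mog in adult mTEClo WT replicate 1 (0.574 CPM), Myh6 in adult mTEChi AireKO replicate 3 (0.342 CPM) and Rbp3 in neonatal mTEClo EEDcKO replicate 3 (0.426 CPM). The others were Myh6 in adult mTEChi WT replicate 3 (12.5 CPM, high), Sag in adult mTEChi AireKO replicate 2 (4.91 CPM, high) and Sag in neonatal mTEChi Ctrl replicate 5 (9.84 CPM, high).

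The Aire effect differed between adult mTEChi and mTEClo, by the interaction term in edgeR, for Myh6 (-6.60 on the log2 scale, adjusted p = 5e-06), Sag (-2.57, adjusted p = 1e-04) and Mbp (0.55, adjusted p = 0.00022).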

How the results depend on the processing

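None of the member values past the adjusted p threshold changed direction in the alternatives run. The same held for those printed above as a log2 difference, except Gad2 in mTEChi AireEEDdKO against EEDcKO (-2.625). That Gad2 value was 0.423 without EEDcKO replicate 2, and it is counted below among the other pairs. Of 796 values of the other pairs of member and comparison, 47 changed sign, each at an adjusted p of 0.374 or more, such as Mbp in mTEChi AireEEDdKO against EEDcKO (0.025, and -0.036 with no filter) and Myh6 in mTEClo EEDcKO against Ctrl (0.027 and -0.005). Of 482 values of the former kind in alternatives other than leaving out a library, 462 kept their side of the threshold, 18 lost it and 2 gained it, and of 484 with 1 library left out the numbers were 443, 39 and 2. The number of members called moved as follows. In adult mTEChi AireKO against WT it was 4 with no minimum change, by DESeq2 and with no filter, against 2. In adult mTEClo AireKO against WT it was 1 with age as a term, with no minimum change and with only the AireKO libraries that hold mitochondrial counts, and 0 to 1 with a library left out. In neonatal mTEChi AireKO against Ctrl it was 2 to 4 with a library left out. In mTEChi EEDcKO against Ctrl it was 0 with sex as a term and 0 to 1 with a library left out. With only the groups compared it was 1 for AireEEDdKO against AireKO and 1 for AireEEDdKO mTEChi against mTEClo (0 to 3 with a library left out). For AireEEDdKO against EEDcKO in mTEChi it was 0 with only the groups compared, where Myh6 was not among the tested genes. With no minimum change it was 2 for that pair. In mTEClo EEDcKO against Ctrl it was 1 with RLE size factors, age as a term, no minimum change and DESeq2, and 0 to 2 with a library left out. In mTEClo AireEEDdKO against EEDcKO it was 0 with prior count 2, the replicate block, sex, age and only the groups compared, and 0 to 1 with a library left out. In EEDcKO mTEChi against mTEClo it was 4 with no filter, and 2 to 3 with a library left out. The causes of the other moves were not tested.

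The replicate block otherwise ended the call of Sag in neonatal mTEChi AireKO (adjusted p = 0.14), and no other call. It also took Sag in adult mTEClo AireKO, which was under 2-fold and not called, past an adjusted p of 0.05 (0.41 on the log2 scale, adjusted p = 0.19). Among all genes, the number called in neonatal mTEClo AireEEDdKO against EEDcKO was 1071 with all groups and 40 with only the groups compared, in mTEChi AireEEDdKO against EEDcKO 2696 and 1749, for the Aire by EED term 253, 394 and by DESeq2 385, in adult WT mTEChi against mTEClo 6964 and by DESeq2 10672, and in adult mTEClo AireKO against WT 1602 and 1047 with age as a term. Without a minimum change the adult mTEChi Aire comparison called 10679 genes against 4515 and the neonatal one 5816 against 3311. Scaling by library size alone put the neonatal mTEChi Aire calls at 357 higher and 3084 lower, against 718 and 2593. Depth limits Rbp3, Gad2 and Mog, which rest on a few counts per library.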
